A study of Sus scrofa with 15 samples.

Results

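The genes described are 9 genes of G1 control in the cell cycle, measured in subcutaneous backfat of Iberian pigs: the CDK inhibitors CDKN1A, CDKN1B, CDKN1C and CDKN2C, the D cyclins CCND1, CCND2 and CCND3, the pocket protein gene RB1, and MDM2, which encodes an E3 ubiquitin ligase. They were taken by symbol, not by their values, from the 30477 genes of the count files. All 9 were found and all 9 were among the 14918 genes with enough counts to be tested. The data are RNA-seq counts of 15 libraries, 1 per pig, with 5 pigs on each of 3 diets. C pigs ate a control compound feed. DOP pigs ate a compound feed made with dry olive pulp. WCOC pigs ate a compound feed free of by-product together with free access to a silage of wet crude olive cake and barley straw. The compound feeds were restricted in all 3 groups, less strictly in C than in DOP and WCOC, so the controls were also not fed to appetite. In comparisons with C, diet and the level of this restriction cannot be told apart. The pigs were Iberian, entered the trial at 6.5 months of age and were biopsied at 12 months. Each diet was fed in a single pen, so diet and pen cannot be told apart, and the sequenced pigs of each pen were picked for the amount and quality of their RNA.

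Cells pass from G1 into DNA synthesis when D cyclins bind CDK4 or CDK6 and these kinases phosphorylate RB1, which then releases the E2F transcription factors. Proteins of the INK4 family, of which CDKN2C encodes p18, bind CDK4 and CDK6 and keep D cyclins off. Proteins of the Cip/Kip family, p21 from CDKN1A, p27 from CDKN1B and p57 from CDKN1C, bind cyclin and kinase together. CDKN1A is also known as a gene induced by DNA damage and other stress, and the E3 ubiquitin ligase MDM2 marks other proteins for degradation. In fat these genes are known from the fibroblast-like precursors, which divide before they become adipocytes, and from mature adipocytes, which have left the cycle.

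The genes lie on 5 chromosomes of the Sscrofa11.1 assembly in the RefSeq annotation. CDKN2C (ENSSSCG00000003876) lies at chr6:161160290-161166681 on the minus strand. CDKN1A (ENSSSCG00000001565) lies at chr7:32354776-32363771 on the plus strand. CDKN1B (ENSSSCG00000037144) lies at chr5:59731224-59735831 and CDKN1C (ENSSSCG00000040461) at chr2:2019391-2022092, both on the minus strand. CCND1 (ENSSSCG00000037900) lies at chr2:3621242-3633380, CCND2 (ENSSSCG00000038694) at chr5:66092483-66114575 and CCND3 (ENSSSCG00000032284) at chr7:37087336-37182462, all on the minus strand. RB1 (ENSSSCG00000009401) lies at chr11:19186754-19317642 on the minus strand and MDM2 (ENSSSCG00000000488) at chr5:33105717-33137602 on the plus strand. CCND2 overlaps the long noncoding RNA LOC106507534, CCND3 overlaps TAF8, and RB1 holds LPAR6, each on the opposite strand. Whether the read counting used strand is not given in the sources used here, so the counts of these 3 genes may hold reads of the overlapping gene.

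The promoter of CDKN2C is shown because this gene carries the main difference between diets, and that of RB1 because it holds an E2F word. Each window runs from 250 bases before to 50 bases after the gene's RefSeq start, read on the minus strand, at chr6:161166632-161166931 for CDKN2C and chr11:19317593-19317892 for RB1. Capitals mark the GC box GGGCGG, the E2F words TTTCCCGC, TTTGGCGC, TTTCGCGC and TTTGCCGC, and the CHR word TTTGAA, each searched on both strands, so a word on the other strand appears as its reverse complement.
CDKN2C promoter: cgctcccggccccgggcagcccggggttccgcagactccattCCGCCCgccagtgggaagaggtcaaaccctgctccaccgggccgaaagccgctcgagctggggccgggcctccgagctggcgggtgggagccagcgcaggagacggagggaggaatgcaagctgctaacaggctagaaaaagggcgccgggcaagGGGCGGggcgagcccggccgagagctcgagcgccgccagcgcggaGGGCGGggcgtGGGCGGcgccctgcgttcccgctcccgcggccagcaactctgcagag
RB1 promoter: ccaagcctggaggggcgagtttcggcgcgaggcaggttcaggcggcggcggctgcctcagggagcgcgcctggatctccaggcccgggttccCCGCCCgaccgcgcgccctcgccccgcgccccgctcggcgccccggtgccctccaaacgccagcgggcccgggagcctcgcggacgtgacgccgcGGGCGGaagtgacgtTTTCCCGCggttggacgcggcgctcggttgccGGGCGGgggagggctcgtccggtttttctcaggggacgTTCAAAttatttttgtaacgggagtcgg
CDKN2C held 4 GC boxes in this window, and neither an E2F nor a CHR word was found there or in the window at its other annotated start. RB1 held 1 E2F word 48 bases before its start, 3 GC boxes and 1 CHR word. MDM2 also held 1 E2F word and CCND2 held 2 CHR words. An E2F word occurred in 3.35%, a CHR word in 14% and a GC box in 50.6% of 19559 promoters of the same length. These are matches of letters and no binding was measured.

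Gene counts per library ran from 22373715 to 34745218, and 67.2% to 76.6% of the counted read pairs fell on a gene. Levels are given as CPM, counts brought to a common library size with TMM, the edgeR correction for library composition. The run identifiers place C 1 to C 4 and all WCOC libraries on 1 flow cell, called A, and C 5 and all DOP libraries on another, called B, so WCOC against DOP and flow cell cannot be told apart. All 8 adipocyte markers were detected in every library and summed to between 14867 and 22847 CPM, which does not show that a library is free of other tissue. Skeletal muscle markers, of which 5 of 10 were in the files, summed to 45343 CPM in DOP 5, 9864 in DOP 2, 5933 in DOP 4, 3667 in C 3 and 2167 in C 1, and to at most 908 CPM in the other 10 libraries. Markers of epidermis and hair follicle, 7 of 9 in the files, summed to 129 CPM in WCOC 5 and 88.2 CPM in WCOC 2 and to at most 38.4 CPM elsewhere, and KRT27 was at 0 in all C and DOP libraries. Nothing in the sources says more than that each library is a separate pig of the pen, so p-values measure the spread between pigs within a pen.

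CDKN2C, the INK4 inhibitor, was lower in WCOC pigs than in both other groups. It read 21.5, 27.5, 23.8, 19.8 and 22.3 CPM in the C libraries and 23.3, 18.5, 24.05, 24.2 and 28.0 CPM in the DOP libraries. In the WCOC libraries it read 15.1, 14.9, 15.9, 10.5 and 8.29 CPM. All 5 WCOC values lay below the lowest value of either other group, and the C and DOP values overlapped throughout. The means were 22.99 ± 2.90 CPM in C, 23.6 ± 3.41 CPM in DOP and 12.96 ± 3.35 CPM in WCOC (SD, n = 5 each).

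The log2 fold change (log2FC) of CDKN2C in WCOC against C was -0.83 ± 0.17 (SE; 95% interval -1.19 to -0.47), a level 43.7% lower, with an adjusted p of 0.00874. A gene is called differentially expressed (DEG) here when its p, adjusted over all 14918 genes, is below 0.05 and its log2FC is 0.58 or more in either direction. CDKN2C was the only DEG of the 9 genes in WCOC against C, where 6.25% of all tested genes were DEGs and 3.93% were DEGs lower in WCOC. Its WCOC and C values did not overlap, as was the case for 7.62% of all tested genes. Against DOP the log2FC was -0.87 ± 0.17 (95% interval -1.22 to -0.51), a level 45.1% lower, with an adjusted p of 0.00687. CDKN2C was again the only DEG of the 9, against 7.76% of all genes in either direction and 5.11% lower in WCOC. Values that did not overlap between WCOC and DOP were found for 8.9% of all genes. In bulk tissue, fewer cells that carry a transcript and less of it per cell cannot be told apart.

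The 2 lowest CDKN2C values came from WCOC 4 and WCOC 5. By the run identifiers these ran in lane 8 of flow cell A, while C 1 to C 4 and WCOC 1 to WCOC 3 shared lane 2. Within lane 2, the 3 WCOC libraries still read below all 4 C libraries, but the log2FC was -0.60 with an adjusted p of 0.0930, so the gene was no DEG there. Within flow cell A it was -0.85 with an adjusted p of 0.0398. CDKN2C stayed a DEG against C and against DOP whichever single library was left out, with log2FC from -0.91 to -0.70 and from -0.95 to -0.74. Without the 5 libraries over 1000 CPM of muscle markers, the log2FC was -0.85 against C and -0.87 against DOP, and the adjusted p rose to 0.0567 and 0.162 in this smaller set. In DOP against C the log2FC of CDKN2C was 0.04 ± 0.17 (95% interval -0.32 to 0.39, adjusted p = 0.940).

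**Figure D1:**
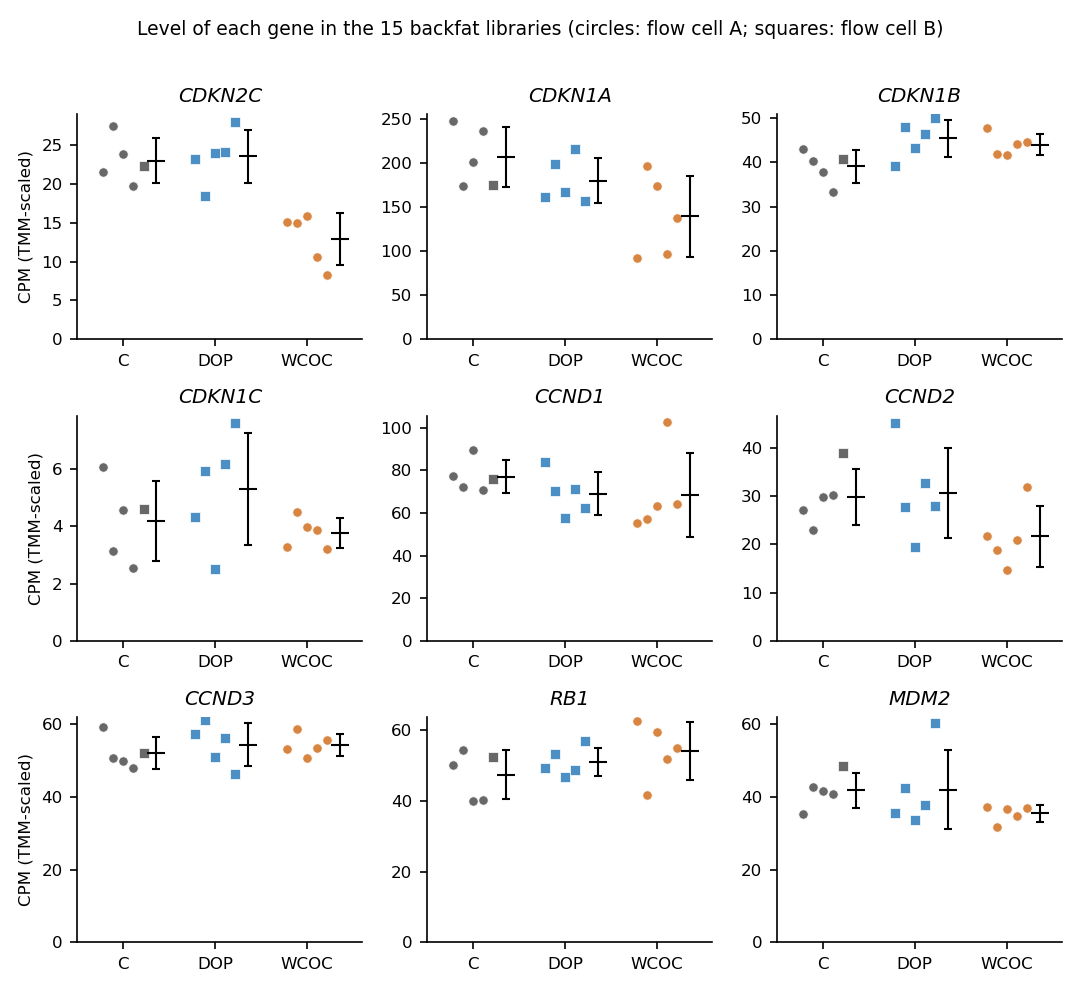
TMM-scaled CPM of each gene (vertical axes, from 0) in the C, DOP and WCOC libraries (horizontal axes), with circles for flow cell A, squares for flow cell B and a bar for the mean ± SD of 5 pigs. The WCOC values of CDKN2C, 8.29 to 15.9 CPM, all lie below the lowest C value of 19.8 and the lowest DOP value of 18.5, whereas the diets overlap in the other 8 panels.

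CDKN1A, which encodes p21, had the next largest difference in WCOC against C. It read 248, 174, 201, 237 and 176 CPM in C and 161, 199, 168, 216 and 158 CPM in DOP. In WCOC it read 92.6, 197, 174, 96.3 and 138 CPM. WCOC 1, WCOC 4 and WCOC 5 lay below every C and DOP value, while WCOC 2 and WCOC 3 lay within the range of C or DOP. The spread within WCOC, an SD of 46.2 CPM around 139.5, was wider than in C (207 ± 34.1 CPM) and DOP (180 ± 25.7 CPM).

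The log2FC of CDKN1A in WCOC against C was -0.57 ± 0.20 (95% interval -0.99 to -0.15), with an unadjusted p of 0.0108 and an adjusted p of 0.0789, so it missed both limits. Leaving out WCOC 2 took it to -0.74 with an adjusted p of 0.0221, and it was a DEG in that 1 of 10 such fits. WCOC 2 is 1 of the 2 libraries with hair follicle markers, and without both of these the log2FC was -0.78 with an adjusted p of 0.0379. In DESeq2 the adjusted p of CDKN1A was 0.0326 with a log2FC of -0.576, short of the size limit. In WCOC against DOP the log2FC was -0.37 ± 0.20 (95% interval -0.79 to 0.05, adjusted p = 0.236), and in DOP against C it was -0.20 ± 0.20 (95% interval -0.62 to 0.22, adjusted p = 0.649). The call for CDKN1A thus turned on WCOC 2, and its log2FC against C lay between -0.78 and -0.45 over all fits run.

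**Figure D2:**
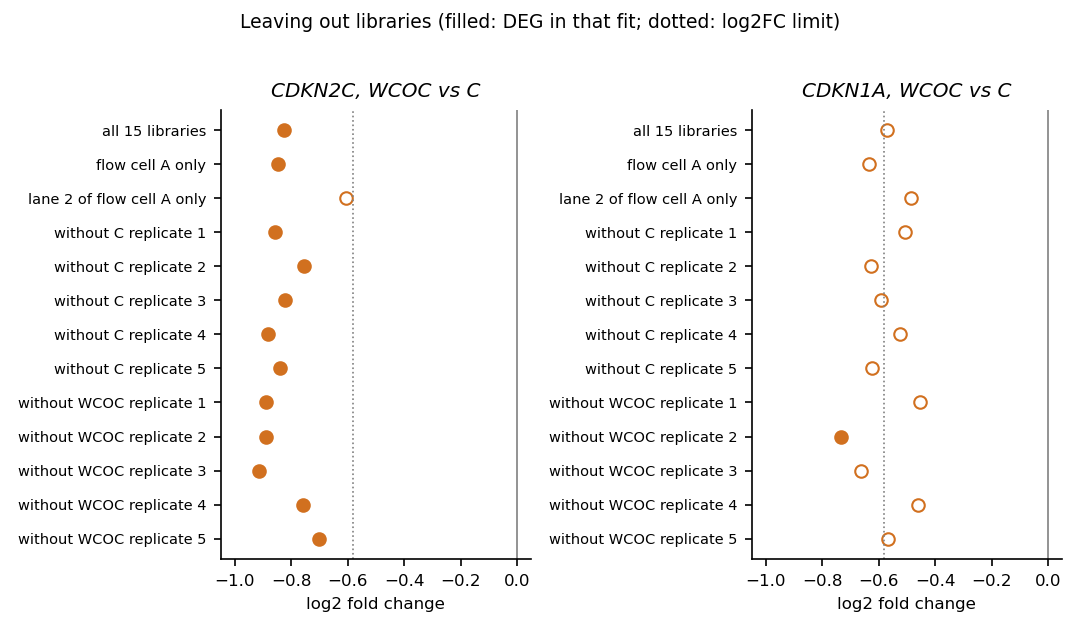
Log2FC of CDKN2C and CDKN1A in WCOC against C (horizontal axes) with all 15 libraries, within flow cell A, within its lane 2 and with each C or WCOC library left out in turn (rows), filled where the gene was a DEG in that fit and with a dotted line at the size limit. CDKN2C is filled in 12 of 13 fits, all but lane 2, and CDKN1A in 1 of 13, the fit without WCOC replicate 2.

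CDKN1B, which encodes p27, had a 1.503-fold range over the 15 libraries. It read 43.1, 40.4, 37.9, 33.3 and 40.7 CPM in C, 39.2, 48.0, 43.2, 46.5 and 50.1 CPM in DOP, and 47.7, 41.9, 41.7, 44.2 and 44.6 CPM in WCOC. The groups overlapped, with C lowest on average at 39.1 ± 3.71 CPM against 45.4 ± 4.28 in DOP and 44.0 ± 2.46 in WCOC. In DOP against C the log2FC was 0.22 ± 0.08 (95% interval 0.04 to 0.39), the only one of the 9 genes with an unadjusted p below 0.05 in that comparison (0.0191, adjusted p = 0.195). Of all 14918 tested genes, 2623 had such a p there. The unadjusted p of CDKN1B was above 0.05 with flow cell as a covariate, without C 4, without DOP 5 and without the 5 muscle-marked libraries, where the log2FC was 0.10. In WCOC against C it was 0.17 ± 0.08 (95% interval -0.00 to 0.35, adjusted p = 0.197), and these values share the same C libraries. WCOC and DOP differed by a log2FC of -0.04 (95% interval -0.22 to 0.13).

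CDKN1C, the imprinted gene for p57, was the least abundant of the 9, with 65 to 218 counts per library. It read 6.08, 3.12, 4.55, 2.53 and 4.61 CPM in C, 4.34, 5.92, 2.50, 6.16 and 7.60 CPM in DOP, and 3.27, 4.49, 3.98, 3.88 and 3.22 CPM in WCOC. All groups overlapped. The highest C value was that of C 1 and the 3 highest DOP values were those of DOP 5, DOP 4 and DOP 2, all muscle-marked libraries. C 3, also muscle-marked, read 4.55 CPM, just below C 5 at 4.61 CPM, which was not. The log2FC was 0.34 (95% interval -0.24 to 0.93) in DOP against C, -0.15 (95% interval -0.74 to 0.44) in WCOC against C and -0.49 (95% interval -1.08 to 0.09) in WCOC against DOP, with adjusted p of 0.561, 0.772 and 0.261. Without the 5 muscle-marked libraries these values turned to -0.01, 0.13 and 0.14.

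None of the D cyclins, which carry growth signals to CDK4 and CDK6, was a DEG in any comparison. CCND1 read 77.2, 72.1, 89.7, 70.7 and 76.1 CPM in C, 84.1, 70.6, 57.7, 71.3 and 62.2 CPM in DOP, and 55.2, 57.1, 63.3, 103 and 64.2 CPM in WCOC. WCOC 4 had the highest CCND1 of all 15 libraries, and the other 4 WCOC values lay below every C value. The log2FC of CCND1 was -0.17 ± 0.15 in WCOC against C (95% interval -0.50 to 0.16, adjusted p = 0.507), and without WCOC 4 it was -0.36 with an adjusted p of 0.0620. In WCOC against DOP the log2FC of CCND1 was -0.01 (95% interval -0.34 to 0.32).

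CCND2 read 27.2, 23.02, 29.9, 30.2 and 39.1 CPM in C, 45.2, 27.9, 19.6, 32.7 and 28.0 CPM in DOP, and 21.8, 18.9, 14.7, 20.96 and 32.01 CPM in WCOC. Of the WCOC libraries, 4 of 5 lay below the lowest C value and WCOC 5 lay within the C range. The log2FC of CCND2 in WCOC was -0.46 ± 0.22 against C (95% interval -0.94 to 0.01, adjusted p = 0.201) and -0.50 ± 0.22 against DOP (95% interval -0.97 to -0.02, adjusted p = 0.158). CCND2 had an unadjusted p of 0.0409 against DOP, and its SE was the largest of the 9 genes after that of CDKN1C.

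CCND3 was the steadiest of the 9 genes, with a 1.32-fold range over all 15 libraries. It read 59.3, 50.8, 50.1, 48.1 and 52.3 CPM in C, 57.4, 61.2, 51.0, 56.3 and 46.4 CPM in DOP, and 53.3, 58.9, 50.8, 53.6 and 55.7 CPM in WCOC. Its log2FC was 0.06 in DOP against C, 0.06 in WCOC against C and -0.00 in WCOC against DOP, and the 95% intervals stayed between -0.17 and 0.24.

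RB1, the brake that D cyclin kinases release, read 50.1, 54.4, 39.9, 40.2 and 52.6 CPM in C, 49.4, 53.3, 46.9, 48.7 and 57.0 CPM in DOP, and 62.5, 41.6, 59.6, 52.0 and 55.1 CPM in WCOC. The 3 groups overlapped, with means of 47.4 ± 6.91, 51.1 ± 4.06 and 54.2 ± 8.10 CPM. The log2FC in WCOC against C was 0.19 ± 0.12 (95% interval -0.06 to 0.44, adjusted p = 0.311), in DOP against C 0.11 (adjusted p = 0.691) and in WCOC against DOP 0.09 (adjusted p = 0.686).

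MDM2 read 35.1, 42.7, 41.6, 40.7 and 48.4 CPM in C, 35.5, 42.3, 33.6, 37.7 and 60.3 CPM in DOP, and 37.2, 31.6, 36.6, 34.6 and 37.0 CPM in WCOC. WCOC was the narrowest group, at 35.4 ± 2.39 CPM, and its values lay at the low end of the other groups, with WCOC 2 below all of them. The 60.3 CPM of DOP 5, the library with the most muscle markers, stood above every other value. The log2FC of MDM2 in WCOC was -0.24 ± 0.14 against C (95% interval -0.53 to 0.06, adjusted p = 0.291) and -0.24 ± 0.14 against DOP (95% interval -0.54 to 0.05, adjusted p = 0.268). The difference from DOP was -0.080 without DOP 5 and 0.03 without the 5 muscle-marked libraries. With all libraries DOP and C differed by 0.01 (95% interval -0.29 to 0.30). Without the 5 muscle-marked libraries the log2FC was -0.32 in WCOC against C (adjusted p = 0.0947) and -0.35 in DOP against C (adjusted p = 0.717). Both had an unadjusted p below 0.05 in that edgeR fit.

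None of the 9 genes was a DEG in DOP against C in edgeR, DESeq2 or limma-voom. Of all tested genes 0.764% were in edgeR, 114 genes, against 507 genes in DESeq2 and 19 in limma-voom. With all 15 libraries, an unadjusted p below 0.05 was found for CDKN1B alone by each of these tools. In edgeR 2623 of all 14918 tested genes had such a p. The DOP and C values overlapped for all 9 genes, while 3.47% of all tested genes did not overlap. All DOP libraries and 1 C library came from flow cell B. DOP 5 had the highest CDKN1B, CDKN1C, CDKN2C, RB1 and MDM2 of the DOP libraries and also the most muscle markers. Some values of other muscle-marked libraries went the other way. DOP 2 had the lowest CDKN2C of the DOP libraries (18.5 CPM), C 1 the lowest MDM2 of C (35.1 CPM) and C 3 the lowest RB1 of C (39.9 CPM). The part of muscle RNA in these values was not tested.

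**Figure D3:**
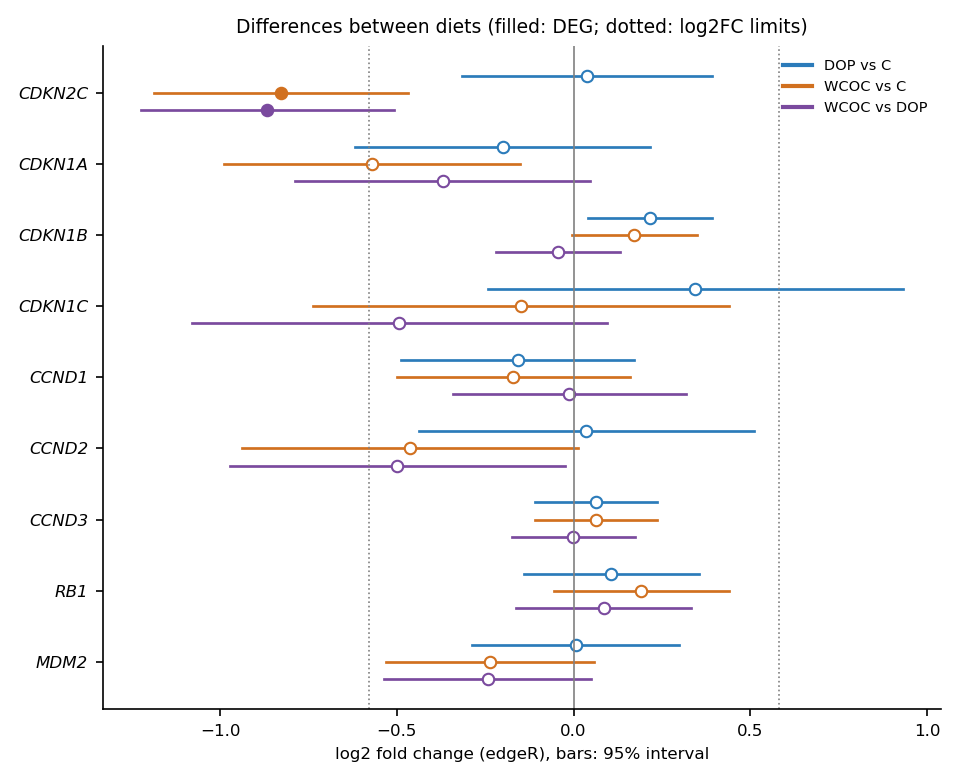
Log2FC (horizontal axis) of the 9 genes (rows) in DOP against C, WCOC against C and WCOC against DOP, with 95% intervals as lines, filled points for DEGs and dotted lines at the size limits. CDKN2C at -0.83 and -0.87 holds the only filled points, and the intervals of CCND3 are narrow around 0 while those of CDKN1C are the widest.

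Genes can be set beside each other only per exon length. Per kb of merged RefSeq exons, CDKN1A was the most abundant of the 9 in every diet, with 97.1 ± 15.97 CPM per kb in C, 84.5 ± 12.1 in DOP and 65.4 ± 21.7 in WCOC, and its range overlapped with that of no neighbour. CDKN1C was the least abundant at 2.21 ± 0.738, 2.81 ± 1.03 and 1.99 ± 0.281 CPM per kb, also apart from its neighbour. CDKN2C came eighth in every diet, with 7.82 ± 0.985, 8.03 ± 1.16 and 4.41 ± 1.14 CPM per kb. In C and DOP its range overlapped with that of the seventh gene, and in WCOC it did not overlap with MDM2 above it or CDKN1C below it. Between these, CCND2, CDKN1B and CCND1 overlapped in turn in C, as did CCND3, MDM2 and RB1. The CCND2 level rests on a single RefSeq model of 1222 bases, the shortest of the 9, and RefSeq models differ from the annotation the authors counted on.

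**Figure D4:**
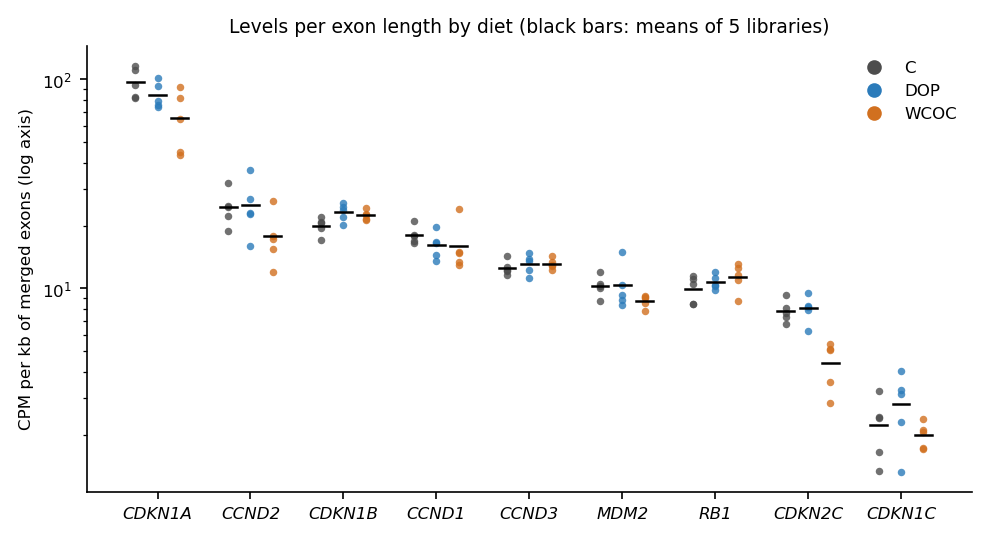
CPM per kb of merged exons (vertical axis, logarithmic) of the 9 genes ordered by their C mean (horizontal axis), with 1 point per library and a bar for the mean of 5 libraries in each diet. CDKN1A stands alone at the top with means of 65.4 to 97.1, and the WCOC points of CDKN2C sit between those of MDM2 and CDKN1C.

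Downstream of RB1, several E2F genes were lower in WCOC. Of all tested genes, 3.93% were DEGs lower in WCOC against C and 5.11% against DOP. Of 12 pocket protein and E2F genes tested, 4 were DEGs and lower in WCOC against C, none was higher, and the same 4 genes were DEGs against DOP. They were E2F1 and E2F2, activators of S-phase genes, and E2F7 and E2F8, which repress them and are themselves made in S phase. E2F1 averaged 10.9 ± 2.51 CPM in C, 9.56 ± 2.13 in DOP and 2.35 ± 0.737 in WCOC, with a log2FC of -2.21 ± 0.24 against C (adjusted p = 0.000208). The log2FC against C was -1.60 for E2F2, -1.92 for E2F7 and -2.39 for E2F8 from C means of 2.47, 2.13 and 2.74 CPM. E2F8 fell under 10 counts in some library. With at least 10 counts required in every library, it was not tested, and 3 of 11 genes were DEGs lower in WCOC against C and against DOP. The p107 and p130 relatives of RB1 were not DEGs, with RBL2 at 0.21 in WCOC against C and 0.19 in DOP against C. The median log2FC of the list was -0.15 in WCOC against C, beside 0.00 over all tested genes. There were 4 such calls whichever single library was left out and within flow cell A, and 1, E2F1, within lane 2, where the log2FC of the 4 genes against C was -2.09, -1.59, -1.90 and -2.06 in the order above. Against DOP, E2F1 was the only one of the 4 called without the muscle-marked libraries, with log2FC of -2.29, -1.60, -2.07 and -2.45 beside -2.03, -1.50, -1.82 and -2.13 with all libraries.

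Markers of dividing cells were also lower in WCOC. Over all tested genes the median log2FC of WCOC was 0.00 against C and 0.00 against DOP, and 3.93% and 5.11% were DEGs lower in WCOC. All 10 markers that could be tested, of 12 listed, were DEGs lower in WCOC against C, with a median log2FC of -1.57, and 9 were against DOP, with a median of -1.32. In DOP against C none was a DEG in edgeR or DESeq2. An unadjusted edgeR p below 0.05 was found for 1 of the 10 and for 2623 of all 14918 tested genes. The median log2FC of the markers was -0.24 with all 10 values below 0. That median was -0.63 with flow cell as a covariate, -0.42 without C 1 and -0.14 without C 5, with no DEG in any of these fits. TOP2A, the topoisomerase that untangles replicated DNA, averaged 23.7 ± 5.45 CPM in C, 20.4 ± 4.04 in DOP and 4.05 ± 1.96 in WCOC, with a log2FC of -2.55 against C. CCNB1 and CCNB2, the mitotic cyclins, had a log2FC of -2.46 and -2.47 against C, and TYMS, which makes thymidylate for DNA synthesis, had -1.76. The 10 markers summed to 74.1 to 148 CPM in C, 79.4 to 113 in DOP and 29.6 to 56.3 in WCOC, so WCOC did not overlap with the other groups. Within lane 2, 1 of 10 was a DEG against C while the median log2FC was -1.37, and without the muscle-marked libraries 10 of 10 were DEGs against C, with a median of -1.80, and 4 of 10 against DOP, with a median of -1.54.

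DEGs made up 6.25% of all tested genes in WCOC against C and 7.76% in WCOC against DOP, beside which the calls in the next short lists are to be read. Among the partners of the 9 genes in G1, CCNE1, the cyclin that follows the D cyclins, was the only DEG of 8 tested cyclins and kinases. It averaged 5.67 ± 0.794 CPM in C, 5.10 ± 1.02 in DOP and 3.37 ± 0.541 in WCOC, with a log2FC of -0.75 against C (adjusted p = 0.0141) and -0.60 against DOP (adjusted p = 0.0324). The CCNE1 call against C held in all 10 fits that left out a single library and was lost within lane 2 (log2FC -0.56, adjusted p = 0.164), and the call against DOP held in 4 of 10, with log2FC from -0.70 to -0.50. The kinases that CDKN2C inhibits showed small differences, with a log2FC in WCOC against C of -0.09 for CDK4 and -0.05 for CDK6. Of the other CDK inhibitors, CDKN3, a phosphatase that acts on CDKs, was a DEG in WCOC against C at -0.76 (adjusted p = 0.0118), from 3.45 ± 0.614 to 2.05 ± 0.347 CPM, and no DEG within flow cell A at -0.70 (adjusted p = 0.0787). The INK4 genes CDKN2B and CDKN2D were no DEGs, at 0.02 and -0.28. CDKN2A had 0 to 5 counts per library and was not tested. Among 9 genes of p27 and D cyclin turnover, CKS2, a small subunit of CDK complexes, was the only DEG, at -1.27 in WCOC against C (adjusted p = 0.000413) and -0.73 against DOP (adjusted p = 0.0110; 0.244 at -0.68 without the muscle-marked libraries), and SKP2, the F-box protein that marks p27, was at -0.18 against C. MDM4, the partner of MDM2, was no DEG, with a log2FC of 0.25 in WCOC against C and 0.21 in DOP against C.

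**Figure D5:**
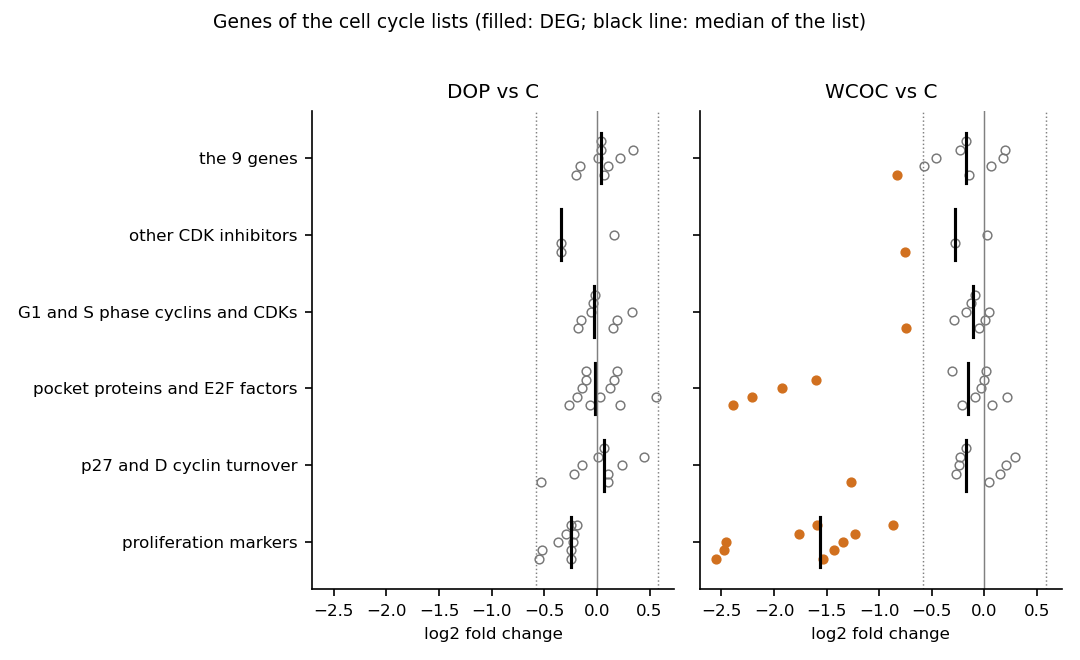
Log2FC (horizontal axes) in DOP against C and WCOC against C of the 9 genes and of 5 further lists (rows), 1 point per tested gene, filled where the gene was a DEG, with a black line at the median of the list. In WCOC against C the 10 proliferation markers, with a median of -1.57, and 4 E2F genes lie far to the left, the medians of the other 5 rows lie between -0.28 and -0.11, and there is no filled point in DOP against C.

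None of 13 transcription factors known to act on these genes, such as MYC, the FOXO factors and the SMADs, was an edgeR DEG in any comparison. An unadjusted p below 0.05 was found for 7 of them in DOP against C, 2 in WCOC against C and 7 in WCOC against DOP. Over all 14918 tested genes these counts were 2623, 3931 and 4196. FOXO4 and SMAD3 in WCOC against C, and FOXO4 and CEBPB in WCOC against DOP, had an adjusted p below 0.05 with a log2FC under the size limit. CEBPB came nearest to that limit, at 0.55 (adjusted p = 0.00924). EGR1 and FOS, early genes of the response to stimuli, had a log2FC of 2.79 and 3.37 in DOP against C (adjusted p = 0.209 and 0.226), where their DOP values spread by more than their means, at 95.1 ± 192 and 92.7 ± 197 CPM. DEGs made up 0.764% of all tested genes in DOP against C and 6.25% in WCOC against C. Of 7 tested genes of the imprinted region around CDKN1C, KCNQ1, a potassium channel gene, was the only DEG. It averaged 20.2 ± 6.66 CPM in C, 9.42 ± 2.50 in DOP and 8.95 ± 1.82 in WCOC. Its log2FC was -1.10 in DOP against C (adjusted p = 0.0452) and -1.17 in WCOC against C (adjusted p = 0.00856), and these comparisons share the C libraries. The DOP call for KCNQ1 held in 1 of 10 fits that left out a single library, the fit without C 2, with log2FC from -1.25 to -0.95 and adjusted p from 0.0347 to 0.121, and with flow cell as a covariate the log2FC was -0.53 (adjusted p = 0.615). The WCOC call for KCNQ1 held in all 10 such fits, while within lane 2 the log2FC was -1.41 (adjusted p = 0.0730) and without the muscle-marked libraries -1.04 (adjusted p = 0.0749).

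Marker transcripts of some other cell types also differed between the groups. Of all tested genes, 49.4% had a negative log2FC in WCOC against C and 3.93% were DEGs lower in WCOC. All 10 macrophage markers had a negative log2FC in that comparison and 5 were DEGs. In DOP against C 9 of the 10 were negative and 1 was a DEG, where 0.764% of all tested genes were DEGs. In WCOC against DOP 7 were negative and 1 was a DEG, where 5.11% of all tested genes were DEGs lower in WCOC. The macrophage sum was 257 to 765 CPM in C, 180 to 455 in DOP and 124 to 341 in WCOC. All 8 fibroblast and preadipocyte markers had a negative log2FC in WCOC against C and 3 were DEGs, and their sum was 22845 to 34437 CPM in C, 19618 to 30835 in DOP and 14383 to 25171 in WCOC. For both lists WCOC 2 had the highest sum of the WCOC libraries, and it also had the highest CDKN1A of that diet. Libraries of C went the other way for macrophages. C 5 had their highest sum, 765 CPM, with CDKN1A at 176 CPM, while C 1 had a sum of 366 CPM and the highest CDKN1A, 248 CPM. Endothelial markers, 6 of 8 in the files, summed to 906 to 1131 CPM in C, 1172 to 1541 in DOP and 989 to 1611 in WCOC. All 6 had a positive log2FC in WCOC against C and 1 was a DEG, beside 6.25% of all tested genes in either direction. In DOP against C 5 of the 6 were positive and none was a DEG. Of the 8 adipocyte markers, 5 were positive and 3 negative in WCOC against C, and 1 was a DEG, higher in WCOC. Smooth muscle markers summed to between 651 and 969 CPM in all libraries. T and B cell markers summed to at most 24.9 CPM, with CD79A at 0 throughout. No macrophage, fibroblast or adipocyte marker was at 0 in any library. The part of these cell types in the CDKN2C, CDKN1A and E2F differences was not tested.

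After the mean of each diet was taken out, the log2 CPM of CDKN2C over the 15 libraries was most like that of PURG, a purine-rich element binding protein, with a Pearson r of 0.918, PPIL6, a cyclophilin-like gene, with 0.878, and DYNC2H1, the heavy chain of the dynein of cilia, with 0.859. These are the top 3 of 11132 genes compared, the libraries share depth and composition, and the values are a description.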

How the data were processed

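The deposited values are raw counts of read pairs per Ensembl gene in 15 backfat libraries. The authors checked reads with FastQC, aligned them to Sscrofa11.1 with HISAT2 and counted them with HTSeq-count, neither normalized nor pooled; the annotation release and the strand option of the counting are not given in the sources used here. The 5 summary lines, 23.4% to 32.8% of a library, stayed out of library sizes and tests. Diets came from the treatment labels, and the sequencing runs were read from identifiers carried by the count files.

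Genes were filtered with filterByExpr by diet, scaled by TMM and fitted with 1 mean per diet over all 15 libraries by the quasi-likelihood F test of edgeR 4.0.16 in R 4.3.3, two-sided, with Benjamini-Hochberg adjustment over 14918 genes. Intervals of a log2FC are 95% t intervals from the fitted SE. CPM values and log2FC were computed here. On simulated counts with 200 changed genes the fit was tested before use. Symbols came from a table of Ensembl IDs, and exons, positions and sequences from RefSeq. Alternatives were DESeq2 1.42.0, its size factors, limma-voom (limma 3.58.1), other filters, a fit of the 2 diets compared, flow cell, lane, a replicate block and single libraries left out. The fits without muscle-marked or hair-follicle-marked libraries were chosen after seeing the data.

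The 9 genes and all lists were chosen with earlier results of these data known, so no p is adjusted over a list. The lists were other CDK inhibitors, G1 and S phase cyclins and kinases, pocket proteins and E2F factors, the MDM2 partner MDM4, p27 and D cyclin turnover, transcription factors, the CDKN1C neighbourhood, proliferation markers, and markers of adipocytes, macrophages, T and B cells, endothelium, fibroblasts, smooth muscle, skeletal muscle, and epidermis and hair follicle. Named from the pathway and proliferation lists were up to 4 DEGs per list and comparison with the largest log2FC, and MDM4, CDK4, CDK6, CDKN2A and RBL2 whatever their values; a further gene of that rule and the lists built on it are not reported here. CDKN2B, CDKN2D and SKP2 were named as relatives of the 9 genes, and FOXO4, SMAD3, CEBPB, EGR1 and FOS from the transcription factors, after their values were seen.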

Additional observations from a re-analysis of the deposited data

Results flagged for a closer look

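CCND1 in WCOC 4 read 102.978 CPM, far from the other 4 WCOC libraries at 55.2 to 64.2 CPM. Its gap to the next value took 0.812 of the range of the group, above the limit of 0.71 for 5 samples, and it was the only 1 of 27 groups of 5 examined to pass a limit that chance passes in about 1 of 20 groups. The difference of CDKN2C between the olive diets, each taken against C, was a log2FC of -0.865689 in WCOC against DOP (edgeR, adjusted p = 0.00687, lower in 5 of 5 WCOC libraries), and for this pair of diets flow cell and diet cannot be told apart.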

How the results depend on the processing

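The number of the 9 genes called was 0 in DOP against C in every fit and 1 in WCOC against DOP in all but 1. In WCOC against C it was 1, with a range of 1 to 2 when single libraries were left out (2 without WCOC replicate 2), 0 within lane 2 of flow cell A and 2 without the hair-follicle-marked libraries. Without the muscle-marked libraries it was 0 in WCOC against C and 0 in WCOC against DOP. CDKN2C kept its log2FC there, and fewer libraries entered the fit. An unadjusted edgeR p below 0.05 was then found for 2 and 1 of the 9 genes, beside 2922 and 1821 of all tested genes. Within lane 2 it was found for 3 of the 9, beside 2694 of all tested genes. The log2FC of single genes changed sign in these fits, none of them a DEG. In DOP against C, flow cell as a covariate gave 0.0367 for CDKN1A, -0.350 for CCND2, -0.0421 for RB1 and -0.208 for MDM2, and limma-voom gave -0.0123 for CCND2. MDM2 in that comparison was also -0.000237 with DESeq2 size factors, -0.00180 in DESeq2, -0.0221 in limma-voom, -0.00713 with only the 2 diets and -0.0117 with the replicate block. CCND3 in WCOC against DOP was 0.000634 with DESeq2 size factors, 0.00839 with no filter, 0.000113 with at least 10 counts in every library, 0.00113 in DESeq2, 0.00469 in limma-voom and 0.00319 with the replicate block. Without the muscle-marked libraries the values were -0.0146 for CDKN1C, -0.0344 for RB1 and -0.352 for MDM2 in DOP against C, 0.127 for CDKN1C in WCOC against C, and 0.0944 for CDKN1B, 0.142 for CDKN1C, 0.00532 for CCND3 and 0.0327 for MDM2 in WCOC against DOP. CCND1 in WCOC against DOP was 0.0948 without the hair-follicle-marked libraries. With single libraries left out, ranges that crossed 0 were -0.0344 to 0.110 for CDKN2C, -0.152 to 0.154 for CCND2 and -0.165 to 0.0690 for MDM2 in DOP against C, -0.289 to 0.0157 for CDKN1C in WCOC against C, and -0.194 to 0.0661 for CCND1 and -0.0572 to 0.0428 for CCND3 in WCOC against DOP. The cause of these changes was not tested. Of the other values of single genes, 515 kept their direction and whether the gene was a DEG, which needs both limits at once, 2 became DEGs and 3 no longer were. CDKN1A in WCOC against C passed the p limit without the size limit in DESeq2 (adjusted p = 0.0326). In limma-voom it passed the size limit without the p limit (log2FC -0.62). The edgeR fits with the replicate block (-0.60), with flow cell as a covariate (-0.62) and within flow cell A (-0.63) did the same. So did those without C 2 (-0.63), C 3 (-0.59), C 5 (-0.62) or WCOC 3 (-0.66).

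Over all tested genes, DOP against C gave 114 DEGs, 507 in DESeq2, 19 in limma-voom, 2 with only the 2 diets, 0 with the replicate block (1950 genes had an unadjusted p below 0.05), 0 without the muscle-marked libraries (857) and 0 to 200 with single libraries left out. WCOC against C gave 933, 473 with the replicate block, 1493 with no limit on the log2FC, 486 within flow cell A, 34 within lane 2, 354 without the muscle-marked libraries and 468 to 1163 with single libraries left out. WCOC against DOP gave 1158, 561 with the replicate block, 1842 with no limit on the log2FC, 92 without the muscle-marked libraries and 639 to 1291 with single libraries left out. Libraries with the same number in 2 diets correlated between -0.495 and 0.345 in their deviations, over 0.1 in 3 of 15 pairs. No steady likeness by number was seen, and a check on so few libraries cannot exclude that the numbers pair the pigs. With the replicate block CDKN2C stayed a DEG at -0.84 against C (adjusted p = 0.0307) and -0.89 against DOP (adjusted p = 0.0230). Depth limits CDKN1C most, at 65 to 218 counts, and CDKN2A could not be compared at 0 to 5.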
